A study of Homo sapiens with 6 samples.

Results

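The genes that build ribosomes in the nucleolus were examined after knock-down of RKIP in the human acute monocytic leukaemia line THP-1. The set was drawn from rows listed under a single gene symbol. It held symbols that start with UTP, NOP, NOL or RRP followed by a digit, or with POLR1. Named nucleolar genes such as NCL, FBL, GAR1, BOP1 and RRN3 were added, and antisense genes were left out. Rows with several symbols or none were not used, and many genes of these families are therefore missing. Only UTP18 and UTP25 of the UTP genes and POLR1F and POLR1H of the POLR1 genes were members. NPM1, DKC1 and PES1, which the rule also names, are not analysed here because no row was listed under these symbols alone. The members were 40 of the 14884 genes that had a value under 1 gene symbol. Of the 40, 38 are protein-coding, RRP7BP is a pseudogene and NOL4L-DT is a non-coding transcript. NOL4, NOL4L and NOL4L-DT fitted the rule by their symbols, but they are not known as ribosome factors. Without these NOL4 genes 37 members are left, the pseudogene RRP7BP included. The tested cells carried a lentiviral hairpin vector against RKIP, the Raf kinase inhibitor protein encoded by PEBP1, and the control cells carried the same vector without a hairpin. Both populations were kept in 1.5 µg/mL puromycin, and each gave 3 expression arrays of total RNA labelled as biological replicates. The labels name an RKIP shRNA and an empty vector but no non-targeting hairpin, and do not say whether the replicates were separate transductions, so p-values here reflect array-to-array spread that may be only technical.

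Ribosomes are assembled from ribosomal RNA and ribosomal proteins. RNA polymerase I, recruited to the ribosomal DNA by RRN3, makes a long precursor RNA, which small nucleolar ribonucleoproteins (snoRNPs) modify at guided positions: box C/D particles add methyl groups through fibrillarin, and box H/ACA particles turn uridines into pseudouridines. The small subunit (SSU) processome folds and cuts the part that becomes the 40S subunit, while a separate series of assembly factors, among them the PeBoW complex of PES1, BOP1 and WDR12, builds the 60S subunit. Growing leukaemia cells spend much of their energy on this process, and many of its genes are known targets of the transcription factor MYC.

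PEBP1, the knocked-down gene, read 8.25, 8.18 and 8.24 in RKIP shRNA cells, against 9.51, 9.77 and 9.75 in control cells (log2 signal, replicates 1 to 3). All RKIP shRNA arrays lay below all control arrays, at 36.4% of the control level (95% interval 31.6% to 42.1%, limma adjusted p = 0.00023). An exact permutation test of PEBP1 by itself, two-sided, gave p = 0.10, the smallest that 3 arrays against 3 allow. Of 10 monocytic markers 6 were measured, and 4 of them rose: LYZ by 2.55, TYROBP by 2.37, SPI1 by 0.49 and CD68 by 0.37 on the log2 scale. CSF1R and CD14 did not pass, and CD14 was dim in both groups. The level of these 6, as their mean log2 signal, was 7.17 to 7.35 on the RKIP shRNA arrays and 6.22 to 6.30 on the control arrays. The same mean over 3 T cell markers was 4.78 to 4.98 in RKIP shRNA cells and 4.57 to 4.89 in control cells. Over 2 B cell markers it was 4.58 to 4.72 in RKIP shRNA cells and 4.63 to 4.79 in control cells, and over 5 epithelial markers 4.69 to 4.79 in RKIP shRNA cells and 4.70 to 4.80 in control cells. The single fibroblast marker, DCN, read 1.80 to 1.97 in RKIP shRNA cells and 1.69 to 1.96 in control cells, and the erythroid KLF1 read 5.09 to 5.38 in RKIP shRNA cells and 4.77 to 5.21 in control cells. CD5, a T cell marker, had a log2 difference of 0.39 whose call was lost in 5 of 6 fits that left out 1 array (adjusted p up to 0.14), and the epithelial KRT18 had one of -0.29, lost in 4 of 6 (up to 0.082). The rise of the monocytic markers accompanied the changes below, and its part in them was not tested. In bulk RNA, fewer cells that use a gene and less of its RNA per cell cannot be told apart.

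Ribosome biogenesis genes were higher in RKIP shRNA cells in more than 1 step of the pathway. Of the 40 genes, 21 were higher, 3 were lower and 16 missed the threshold (limma, Benjamini-Hochberg adjusted p under 0.05 over all 14884 genes). Over all genes the share that rose was 10.0% and the share that fell 10.2%, against 52.5% and 7.5% of these 40. Among the 9667 genes at or above the median of all rows, a brightness that 38 of the 40 reached in both groups, 14.5% rose and 14.6% fell. That median is 4.08, while GAR1, the dimmest member that rose, had a control mean of 6.50. The 9667 genes were therefore not matched to the members in brightness. The median log2 difference was 0.28 for the 40 genes and 0.02 for all genes. The changes were modest: the 21 genes that rose were 1.20-fold to 1.70-fold higher, with a median log2 difference of 0.50 and standard errors from 0.06 to 0.17. In 24 of the 40 genes every RKIP shRNA array lay above every control array, a pattern found in 19.8% of all genes, and in 3 every RKIP shRNA array lay below, as in 18.1% of all genes. Set against each gene's control mean, the median of the 40 was 0.30, 0.23 and 0.28 log2 units on the RKIP shRNA arrays and 0.00, 0.01 and 0.00 on the control arrays, so that the shift was present on each RKIP shRNA array. On leaving out 1 array at a time, 13 of the 21 rises and 2 of the 3 falls passed in all 6 fits, and the number of genes that rose was between 14 and 17. It was 15, 17 and 17 without RKIP shRNA replicate 1, 2 or 3, where 6.47%, 8.14% and 7.50% of all genes rose, and 16, 14 and 14 without control replicate 1, 2 or 3, where 7.30%, 6.51% and 6.60% did. In the same fits 3 members fell without any 1 RKIP shRNA array, beside 7.24%, 7.96% and 8.53% of all genes, and 2, 2 and 3 without control replicate 1, 2 or 3, beside 7.37%, 6.84% and 7.12%. With all rows of the table in the fit 13 members rose and 2 fell (5.64% and 6.28% of all genes), at an adjusted p under 0.01 the counts were 12 and 2 (4.68% and 5.21%), and with the replicate number as a block they were 15 and 3 (6.94% and 7.45%).

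**Figure D1:**
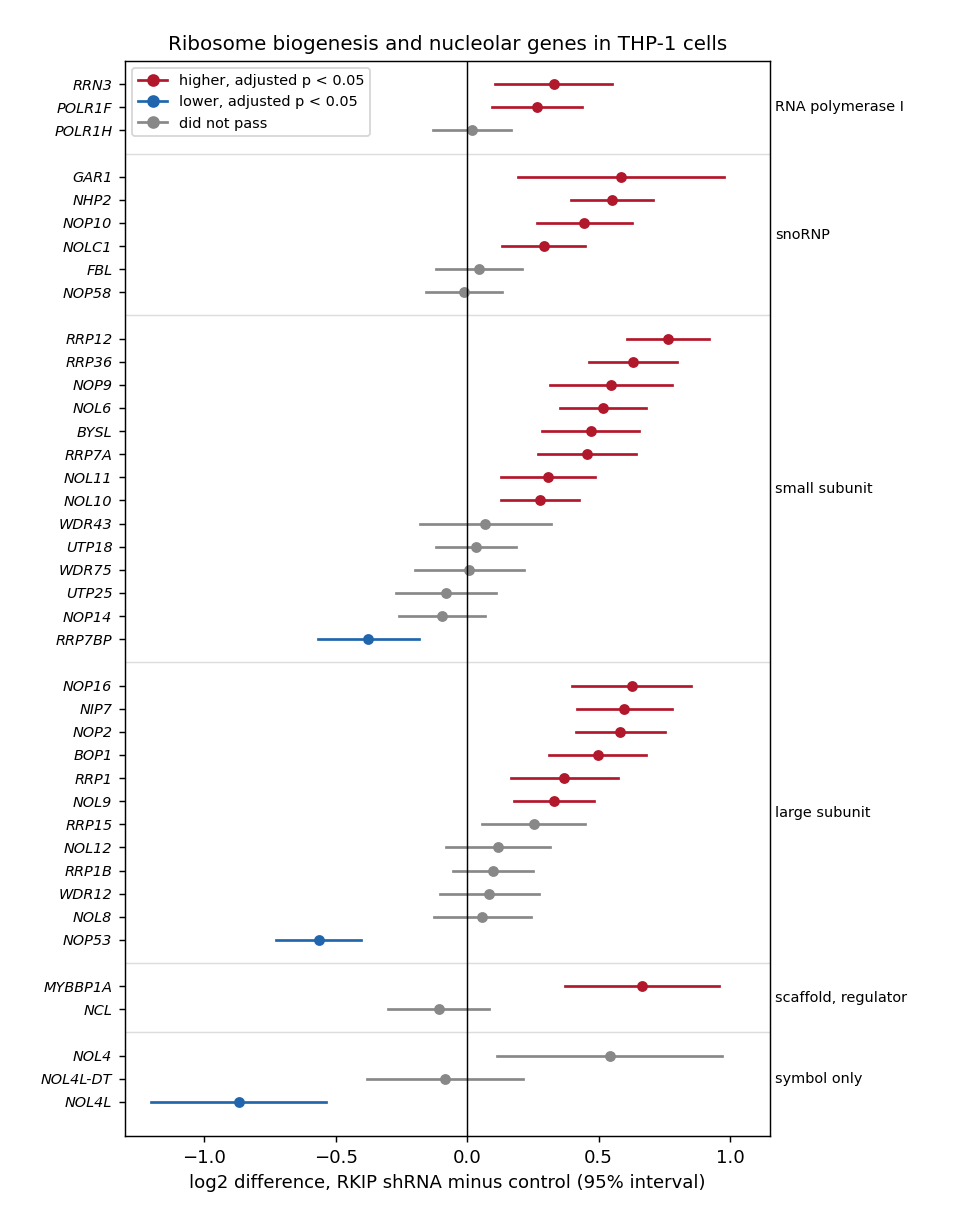
Log2 difference of each of the 40 genes, RKIP shRNA minus control, with its 95% interval from limma, grouped by role and coloured by whether the gene rose, fell or did not pass the test. The 21 genes that rose are spread over RNA polymerase I, snoRNP, small subunit and large subunit genes and MYBBP1A, and the 3 that fell are RRP7BP, NOP53 and NOL4L.

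The members that moved were next looked at for letters shared in their promoters. A RefSeq sequence upstream of an annotated start was at hand for 33 of the 40 genes (GRCh38.p14), among them 17 of those that rose. Motifs of 3 kinds were searched on both strands in the 250 bases before each start: CACGTG, the E-box that MYC and its partners bind, CCGGAAG, a core letter run of ETS family sites, and CGCATGCG, part of the NRF1 site. A gene with several annotated starts counted once if any start held the motif. The ETS-type run stood before 7 of the 17 genes that rose, or 41.2%, before 2 of 14 that did not pass, and before neither of the 2 with a sequence that fell. It stood before 15.1% of all 9707 measured protein-coding genes with a sequence, and before 24.1% of the 1210 of them that rose. The E-box was found before 1 of the 17, NOP10, and before 2 of the 14 that did not pass, NOL8 and UTP18, against 10.1% of all such genes and 12.6% of those that rose. The NRF1-type run was found before 1 of the 17, MYBBP1A, and before 1 of the 14, UTP18, against 3.18% of all such genes and 4.55% of those that rose. These counts describe letters in these windows and show neither binding nor its absence. The 5 rising genes with the smallest p that hold the ETS-type run are printed below. They are followed by NOP53, a ribosome factor that fell and holds none of the 3 exact runs. Other forms of ETS family sites were not searched. The NOP53 window holds caggaag and acggaag, each 1 letter from the ETS-type run, so it may still hold such a site. Each line gives the 250 bases before the start, 5′ to 3′ along the gene, with motif matches in capitals.
RRP36, chr6:43021373-43021622, plus strand: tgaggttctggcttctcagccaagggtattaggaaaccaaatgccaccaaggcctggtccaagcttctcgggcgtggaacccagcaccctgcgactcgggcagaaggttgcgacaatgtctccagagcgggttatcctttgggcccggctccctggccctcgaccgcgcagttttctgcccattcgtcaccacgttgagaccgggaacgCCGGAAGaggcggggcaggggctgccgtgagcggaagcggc
NIP7, chr16:69339522-69339771, plus strand: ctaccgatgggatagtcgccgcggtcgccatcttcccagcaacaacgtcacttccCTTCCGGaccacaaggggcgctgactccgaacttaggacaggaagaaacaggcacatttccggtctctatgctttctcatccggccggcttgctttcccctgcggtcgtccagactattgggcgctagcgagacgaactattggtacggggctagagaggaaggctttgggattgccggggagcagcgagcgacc
NOP16, chr5:176388599-176388848, minus strand: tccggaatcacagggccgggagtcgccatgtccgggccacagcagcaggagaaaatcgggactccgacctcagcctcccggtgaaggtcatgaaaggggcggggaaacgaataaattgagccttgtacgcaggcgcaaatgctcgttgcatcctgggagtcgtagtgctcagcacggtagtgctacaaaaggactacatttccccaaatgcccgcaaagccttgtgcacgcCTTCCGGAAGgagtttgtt
NOP10, chr15:34343137-34343386, minus strand: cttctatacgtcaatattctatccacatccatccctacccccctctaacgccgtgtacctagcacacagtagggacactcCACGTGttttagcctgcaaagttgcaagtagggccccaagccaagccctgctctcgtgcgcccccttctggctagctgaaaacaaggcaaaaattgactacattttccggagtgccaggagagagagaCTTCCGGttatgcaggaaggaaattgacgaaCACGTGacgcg
NOL9, chr1:6554514-6554763, minus strand: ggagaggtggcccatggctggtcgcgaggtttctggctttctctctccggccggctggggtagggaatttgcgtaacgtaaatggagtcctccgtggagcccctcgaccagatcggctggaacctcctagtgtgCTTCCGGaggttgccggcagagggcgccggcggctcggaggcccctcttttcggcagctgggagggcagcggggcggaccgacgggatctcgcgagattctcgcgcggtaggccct
NOP53, chr19:47745296-47745545, plus strand: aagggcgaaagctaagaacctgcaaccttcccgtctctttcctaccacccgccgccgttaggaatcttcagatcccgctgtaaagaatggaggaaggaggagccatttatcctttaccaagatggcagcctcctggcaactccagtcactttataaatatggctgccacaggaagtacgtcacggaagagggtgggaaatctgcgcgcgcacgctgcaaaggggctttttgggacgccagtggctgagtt
Counted back from the annotated start, with -1 as the last base before it, the ETS-type run began at -41 in RRP36, at -42 in NOP10 and, with overlapping matches on both strands, at -19 and -16 in NOP16. It began farther away in NOL9, at -116, and in NIP7, at -195. NOP10 also held the E-box at -170 and at -11. GAR1 and RRN3, the other rising genes with the ETS-type run, held it at -28 and -37, in RRN3 before 1 of its 2 annotated starts.

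**Figure D2:**
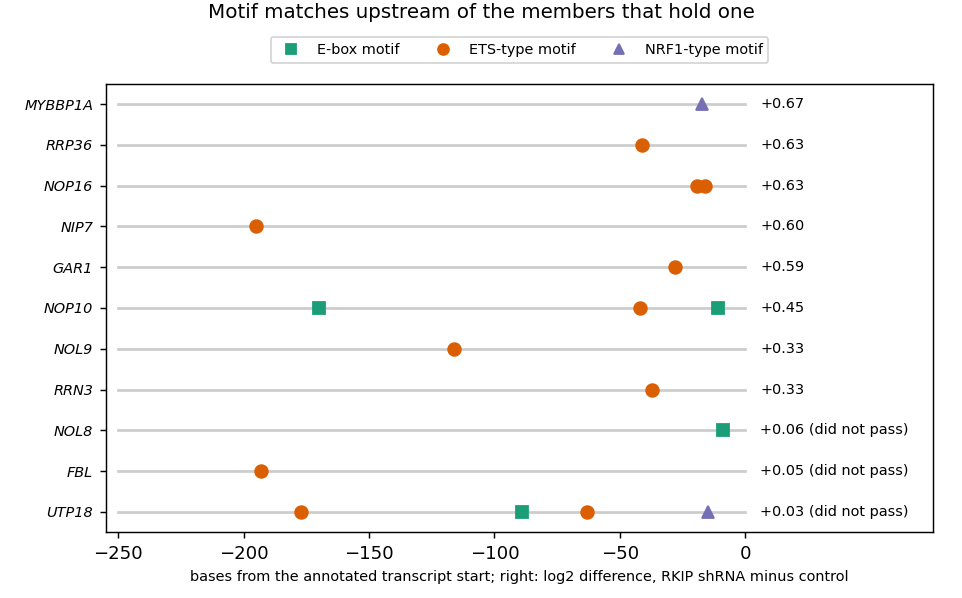
Positions of the motif matches in the 250 bases upstream of the annotated start, 1 line per gene that holds any, ordered by log2 difference (RKIP shRNA minus control, at the right) and marked where the gene did not pass the test. ETS-type matches of RRP36, NOP16, GAR1, NOP10 and RRN3 sit within 50 bases of the start, while those of NIP7 and NOL9, and of FBL and UTP18, which did not pass, sit farther upstream.

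RNA polymerase I itself was represented by POLR1F, POLR1H and its initiation factor RRN3. RRN3, which bridges the polymerase to the promoter of the ribosomal DNA, read 8.30, 8.61 and 8.38 in RKIP shRNA cells, against 8.06, 8.11 and 8.13 in control cells. It was 1.26-fold higher (95% interval 1.08 to 1.46, adjusted p = 0.0498). POLR1F, the stalk subunit that RRN3 contacts, read 8.12, 8.06 and 8.11 in RKIP shRNA cells, against 7.93, 7.80 and 7.77 in control cells, and was 1.20-fold higher (1.07 to 1.35, adjusted p = 0.043). In both genes the groups did not overlap, but neither call was firm. RRN3 passed only without RKIP shRNA replicate 1, with adjusted p-values up to 0.13 in the other 5 fits, and POLR1F passed only without control replicate 1, also with values up to 0.13. POLR1H, the small subunit that takes part in RNA cleavage, had a log2 difference of 0.02 with a 95% interval from -0.13 to 0.17 and did not pass.

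Of 6 core or accessory snoRNP proteins, 4 rose, and the 3 measured structural proteins of the box H/ACA particle were among them. NHP2 read 7.95, 7.89 and 7.89 in RKIP shRNA cells, against 7.42, 7.33 and 7.33 in control cells. Every RKIP shRNA array lay above every control array, and the gene was 1.46-fold higher (1.31 to 1.63, adjusted p = 0.0021). NOP10, the smallest of these proteins, read 9.14, 9.16 and 9.26 in RKIP shRNA cells, against 8.79, 8.79 and 8.64 in control cells, which is 1.36-fold higher (1.20 to 1.54, adjusted p = 0.0073). GAR1, which helps release the modified RNA, read 7.13, 7.08 and 7.04 in RKIP shRNA cells, against 6.10, 6.76 and 6.65 in control cells. Its groups did not overlap, but control replicate 1 lay far below the other control arrays, and the 1.50-fold difference (1.14 to 1.97, adjusted p = 0.048) lost its call in 4 of 6 fits, without any 1 RKIP shRNA array or without control replicate 3, with adjusted p-values up to 0.13. NOLC1, the chaperone Nopp140 that binds both kinds of snoRNP, read 10.88, 10.76 and 10.84 in RKIP shRNA cells, against 10.51, 10.55 and 10.55 in control cells. It was 1.22-fold higher (1.10 to 1.36, adjusted p = 0.022) and passed only without RKIP shRNA replicate 2 when single arrays were left out (adjusted p up to 0.081).

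The box C/D proteins among the members, FBL and NOP58, did not pass. FBL, the methyltransferase fibrillarin, read 11.29, 11.29 and 11.32 in RKIP shRNA cells, against 11.16, 11.31 and 11.28 in control cells. NOP58, a scaffold of the same particle, read 11.21, 11.19 and 11.22 in RKIP shRNA cells, against 11.20, 11.23 and 11.22 in control cells. The groups overlapped in both genes, and the 95% intervals of their log2 differences ran from -0.12 to 0.21 for FBL and from -0.16 to 0.13 for NOP58. The difference between the H/ACA and C/D proteins was not itself tested.

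Among 14 genes of the small subunit pathway 8 rose, RRP7BP fell and 5 did not pass, with a median log2 difference of 0.29. RRP12, a repeat protein of late pre-40S particles on their way out of the nucleus, showed the largest rise of all 40 genes. It read 9.00, 9.00 and 9.02 in RKIP shRNA cells, against 8.18, 8.23 and 8.31 in control cells, and was 1.70-fold higher (1.52 to 1.89, adjusted p = 0.00067). RRP36, needed for early cuts in the precursor RNA, read 9.33, 9.30 and 9.34 in RKIP shRNA cells, against 8.77, 8.60 and 8.71 in control cells. In both genes the RKIP shRNA arrays lay close together and well above all control arrays, and RRP36 was 1.55-fold higher (1.38 to 1.74, adjusted p = 0.0017).

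NOL6 and RRP7A, known as partners in the UTPC complex of the processome, rose together. NOL6 read 8.68, 8.55 and 8.63 in RKIP shRNA cells, against 8.16, 8.08 and 8.07 in control cells, a 1.43-fold difference (1.28 to 1.60, adjusted p = 0.0031). RRP7A read 7.90, 7.89 and 7.89 in RKIP shRNA cells, against 7.54, 7.46 and 7.31 in control cells, a 1.37-fold difference (1.21 to 1.56, adjusted p = 0.0078). The groups did not overlap in either gene. RRP7BP, a pseudogene related in sequence to RRP7A, went the other way: it read 6.96, 6.89 and 6.73 in RKIP shRNA cells, against 7.26, 7.25 and 7.18 in control cells, and was 1.30-fold lower (1.14 to 1.48, adjusted p = 0.019). Its fall did not pass without control replicate 1 or 2 (adjusted p up to 0.066). Whether the probes of the pair also read each other's RNA was not tested.

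BYSL, or bystin, an early and long-lasting component of pre-40S particles, read 7.87, 7.95 and 7.88 in RKIP shRNA cells, against 7.31, 7.53 and 7.45 in control cells (1.39-fold, 1.22 to 1.57, adjusted p = 0.0066). NOP9, an RNA-binding repeat protein known from yeast to act in 18S maturation, read 8.32, 8.26 and 8.45 in RKIP shRNA cells, against 7.62, 7.88 and 7.88 in control cells (1.46-fold, 1.24 to 1.72, adjusted p = 0.0088). All RKIP shRNA arrays lay above all control arrays in both. NOL10 and NOL11, further processome factors of which NOL11 belongs to the UTPA complex that binds the precursor first, had log2 differences of 0.28 and 0.31 (adjusted p = 0.022 and 0.030). NOL10 lost its call without RKIP shRNA replicate 1 or any 1 control array (adjusted p up to 0.080), and NOL11 without any 1 array other than RKIP shRNA replicate 2 (up to 0.095). A second, dimmer NOL10 probe had a log2 difference of 0.18 and did not pass.

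Other scaffold proteins of the processome did not pass. WDR43 and WDR75, UTPA partners of NOL11, had log2 differences of 0.07 and 0.01, with 95% intervals from -0.18 to 0.32 and from -0.20 to 0.21. UTP18, of the UTPB complex, had a difference of 0.03, and UTP25 and NOP14, factors of the assembled processome, of -0.08 and -0.10. In each of these 5 genes the groups overlapped.

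Among 12 large subunit genes 6 rose, NOP53 fell and 5 did not pass, with a median log2 difference of 0.29. NOP2, which methylates a cytosine of the 28S RNA, read 9.38, 9.50 and 9.37 in RKIP shRNA cells, against 8.77, 8.87 and 8.86 in control cells, and was 1.50-fold higher (1.33 to 1.69, adjusted p = 0.0023). NIP7, required for precursor processing, read 10.21, 10.12 and 10.18 in RKIP shRNA cells, against 9.68, 9.57 and 9.47 in control cells, and was 1.51-fold higher (1.33 to 1.72, adjusted p = 0.0026). NOP16, known from yeast as a factor of early pre-60S particles, read 8.80, 9.02 and 9.10 in RKIP shRNA cells, against 8.34, 8.43 and 8.29 in control cells, and was 1.54-fold higher (1.32 to 1.80, adjusted p = 0.0048). In all 3 genes the lowest RKIP shRNA array exceeded the highest control array, and the call held in each fit that left out 1 array.

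BOP1, of the PeBoW complex, read 8.13, 8.14 and 8.04 in RKIP shRNA cells, against 7.49, 7.65 and 7.68 in control cells (1.41-fold, 1.24 to 1.60, adjusted p = 0.0055). A second, dimmer BOP1 probe gave a log2 difference of 0.20 that did not pass over all rows (adjusted p = 0.21). Its partner WDR12 read 9.03, 8.90 and 9.01 in RKIP shRNA cells, against 8.95, 8.95 and 8.79 in control cells. The WDR12 groups overlapped, and the 95% interval of its log2 difference ran from -0.10 to 0.27. The difference between BOP1 and WDR12 was not itself tested. NOL9, the kinase that helps remove the second internal spacer, and RRP1, a factor of 28S formation, had log2 differences of 0.33 and 0.37 (adjusted p = 0.013 and 0.024). NOL9 lost its call without control replicate 2 (adjusted p = 0.053), and RRP1 kept it only without RKIP shRNA replicate 3 (up to 0.082 in the other 5 fits).

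NOP53 was the protein-coding gene that fell among the 37 members left without the NOL4 genes. It is known to dock the RNA exosome on pre-60S particles. It read 9.82, 9.86 and 9.96 in RKIP shRNA cells, against 10.46, 10.45 and 10.43 in control cells, or 67.6% of the control level (1.48-fold lower, 1.32 to 1.65, adjusted p = 0.0022). Every RKIP shRNA array lay below every control array, and the call held in each fit that left out 1 array. The 5 large subunit genes that did not pass were RRP15, RRP1B, NOL12, WDR12 and NOL8, with log2 differences of 0.25, 0.10, 0.12, 0.08 and 0.06. RRP1B is a paralogue of RRP1. In RRP15 and RRP1B the groups did not overlap, and RRP15 had an adjusted p of 0.077.

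**Figure D3:**
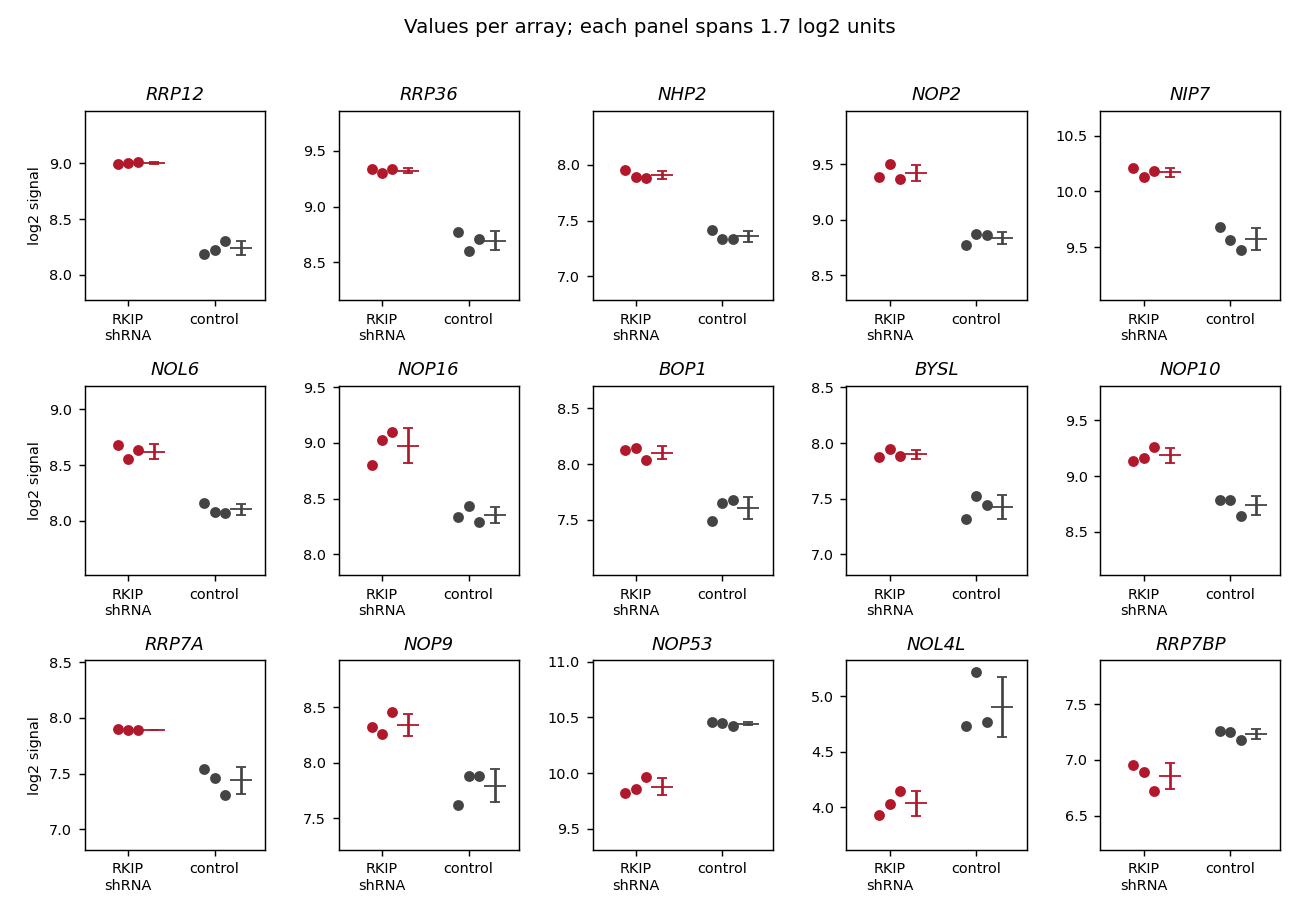
Log2 signal on each array for the 12 rising genes with the smallest p and the 3 that fell, with RKIP shRNA arrays at the left and control arrays at the right of each panel, and the mean with its SD (n = 3) beside the points. Each panel spans the same range of log2 units, and the groups do not overlap in any panel, with RRP7A and RRP12 nearly identical on the 3 RKIP shRNA arrays and NOL4L and NOP9 spread on the control arrays.

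Of 2 nucleolar proteins with scaffold or regulatory roles, 1 rose and 1 did not pass. MYBBP1A, a MYB-binding protein that is held in the nucleolus and released when ribosome synthesis stops, read 8.91, 8.72 and 8.69 in RKIP shRNA cells, against 8.34, 7.92 and 8.06 in control cells. It was 1.59-fold higher (1.30 to 1.94, adjusted p = 0.010), without overlap between the groups. NCL, or nucleolin, read 10.16, 10.12 and 10.34 in RKIP shRNA cells, against 10.26, 10.35 and 10.32 in control cells. Its groups overlapped, and it did not pass (log2 difference -0.11, 95% interval -0.30 to 0.08).

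Of the 3 genes that share the symbol and not the known role, NOL4L fell. It read 3.93, 4.03 and 4.15 in RKIP shRNA cells, against 4.73, 5.22 and 4.77 in control cells (1.82-fold lower, 1.45 to 2.30, adjusted p = 0.0061). Its RKIP shRNA mean lies below the median of all rows, 4.08. NOL4, a gene of brain, was dim on all arrays, with values from 2.62 to 3.40 in RKIP shRNA cells, against 2.39 to 2.48 in control cells, and did not pass (adjusted p = 0.081). NOL4L-DT, transcribed from beside NOL4L, had overlapping groups and a log2 difference of -0.08.

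The rest of the pathway was described from lists of genes outside the 40. Only measured genes outside the 40 were counted. They made up 33 of 44 small subunit names, 41 of 53 large subunit names and 14 of 16 exosome names. For RNase MRP and RNase P they were 7 of 11 names, and for snoRNP assembly 10 of 12. The counts of these lists stand beside the 10.0% of all genes that rose and the 10.2% that fell. Of 33 other small subunit factors 12 rose and 2 fell, with a median log2 difference of 0.17. TBL3, of the UTPB complex, rose by 0.78 and PNO1, an RNA-binding factor of the pre-40S particle, by 0.59 on the log2 scale (SE 0.11 and 0.07, adjusted p = 0.0036 and 0.0021). MRM2, which stood in this list under an older symbol, rose by 0.90 but is a methyltransferase of the mitochondrial ribosome, and without it 11 of 32 rose. NOB1, the nuclease that makes the final cut of 18S RNA and a partner of PNO1, fell: it read 10.52, 10.55 and 10.47 in RKIP shRNA cells, against 11.46, 11.25 and 11.31 in control cells, or 56.4% of the control level (SE of the log2 difference 0.08, adjusted p = 0.00092). The groups did not overlap in NOB1, and its adjusted p stayed at or below 0.0063 when single arrays were left out. RIOK3, a kinase of the 40S pathway chosen after its values were seen, was the other that fell, at -0.23, and did not pass without any 1 array. With 1 array left out, 7 to 9 of the 33 rose. The count was 7 without RKIP shRNA replicate 1, control replicate 1 or control replicate 3.

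Of 41 other large subunit factors 17 rose and 4 fell, with a median of 0.21. These counts depended on the setting: 25 rose and 9 fell with a trended and robust prior, where 13.1% of all genes rose and 12.9% fell, and 8 rose with all rows in the fit. MRTO4, which holds the place of the ribosomal stalk during assembly, rose by 0.79 and FTSJ3, a methyltransferase of the precursor RNA, by 0.75. RRS1, known from yeast to help load the 5S particle, rose by 0.70 and SURF6, a nucleolar RNA-binding protein, by 0.55 (SE from 0.07 to 0.09, adjusted p from 0.0013 to 0.0030 for these 4 genes). The 4 that fell were NMD3 at -0.54, RSL24D1 at -0.41, NLE1 at -0.39 and EFL1 at -0.50, named after their values were seen. NMD3 is the export adaptor of the 60S subunit, RSL24D1 a placeholder for a ribosomal protein, and EFL1 the GTPase that helps free the finished subunit of EIF6. NLE1 and EFL1 lost their calls without control replicate 2 or 3 (adjusted p up to 0.058 and 0.078). Another mitochondrial methyltransferase, MRM3, also stood in this list, and without it 16 of 40 rose. With 1 array left out, 9 to 13 of the 41 rose. The count was 9 without RKIP shRNA replicate 1 or control replicate 2. Shares of all genes that rose were lower in those fits too, at 6.47% without RKIP shRNA replicate 1.

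Of 10 factors that assemble snoRNPs 5 rose and the others did not pass, with a median of 0.35. The ATPases RUVBL1 and RUVBL2 rose by 0.50 and 0.47, their cofactor PIH1D1 by 0.40 and TGS1, which modifies the caps of some small RNAs, by 0.53 (adjusted p from 0.0026 to 0.011). PHAX, an export adaptor of small RNAs, rose by 0.36 but lost its call in 4 of 6 fits, without RKIP shRNA replicate 1 or any 1 control array (adjusted p up to 0.064). Of 6 genes listed for ribosomal DNA transcription 3 rose and 3 did not pass. These were SIRT7, a deacetylase that activates RNA polymerase I, at 0.40, and TOP1 and KDM2A, which act on many genes, at 0.49 and 0.32. KDM2A lost its call without RKIP shRNA replicate 1 or control replicate 2 (adjusted p up to 0.053). Of 14 genes of the RNA exosome, which trims the precursor, EXOSC4 rose by 0.69 (SE 0.12, adjusted p = 0.0076) and 13 did not pass. That is 7.14% of the list, no more than the 10.0% of all genes that rose. RPP14 and RPP38, of 7 proteins of RNase MRP and RNase P, rose by 0.35 and 0.40, and both lost their calls without RKIP shRNA replicate 1 or 2 or control replicate 1 or 2, RPP38 also without control replicate 3 (adjusted p up to 0.061 and 0.10).

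Of 53 cytosolic ribosomal proteins, which these factors assemble into subunits, 3 rose and 2 fell. Those shares, 5.66% and 3.77%, lie below the 10.0% and 10.2% of all genes. The median log2 difference of the 53 was -0.01, and -0.05 to 0.01 when single arrays were left out. RPS26 rose by 0.62, RPL26L1, a near copy of RPL26, by 0.53 and RPL29 by 0.41, while RPL12 stood at -0.30 and RPL10A at -0.23. RPL29 lost its call without RKIP shRNA replicate 1 or control replicate 2 or 3 (adjusted p up to 0.059), RPL12 without any 1 array other than RKIP shRNA replicate 3 (up to 0.080), and RPL10A without any 1 array (up to 0.12). Several of these genes have many near-identical pseudogenes, so their signals may not be theirs alone.

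MYC itself was lower in RKIP shRNA cells. It read 11.23, 11.14 and 11.34 in RKIP shRNA cells, against 11.68, 11.64 and 11.65 in control cells, or 74.7% of the control level (SE of the log2 difference 0.07, adjusted p = 0.0083). The groups did not overlap. Of 11 measured genes of the MYC network, MXD3, a MAX partner, rose by 0.53. MXI1, another MAX partner that opposes MYC, and ZBTB17, which encodes MIZ1, fell, at -0.62 and -0.31. With MYC counted, 9.09% of the 11 rose and 27.3% fell, against 10.0% and 10.2% of all genes, so the share that rose is near that of all genes. ZBTB17 lost its call without control replicate 2 (adjusted p = 0.058), and MXD3 with the mean of its probes, where its log2 difference was 0.16 (adjusted p = 0.22). Of 4 genes listed for the checkpoint that senses failed ribosome assembly 2 fell: MDM4, at -0.63, and CDKN2A, whose ARF product resides in the nucleolus, at -0.84 (adjusted p = 0.00099 and 0.0022).

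**Figure D4:**
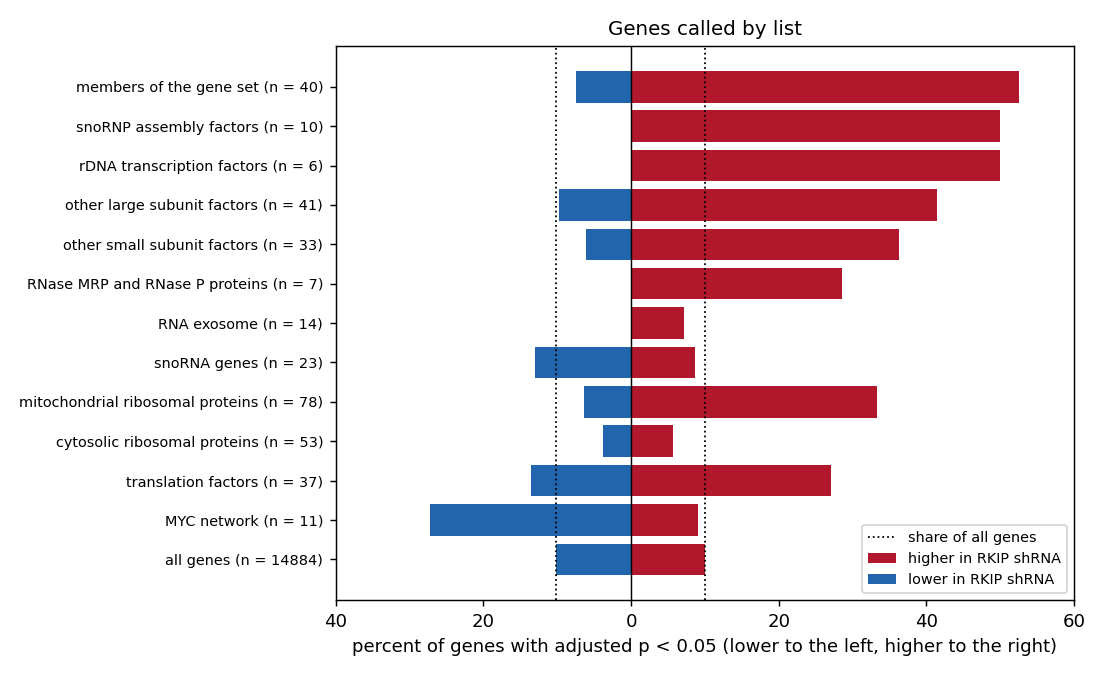
Percent of the genes of each list that rose (right, red) or fell (left, blue) in RKIP shRNA against control cells at an adjusted p under 0.05, with dotted lines at the shares of all genes. The 40 ribosome biogenesis genes reach 52.5% higher, the lists of snoRNP assembly and large and small subunit factors lie between 36.4% and 50.0%, and the cytosolic ribosomal proteins stay at 5.66%.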

How the data were processed

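The deposited table gave 53617 rows for 6 arrays. Its log2 scale was taken from the deposited numbers themselves, which run from 0.72 to 14.0. How the authors corrected and normalised the arrays is not given in the sources used here. Per the labels' protocols, 250 ng of total RNA was labelled with biotin. The array annotation gave 1 symbol to 16098 rows, and of several probes for 1 gene the brightest over the 6 arrays was kept, leaving 14884 genes. All 40 members matched RefSeq gene numbers, and their current symbols gave the same 40. RKIP shRNA minus control was fitted with limma 3.58.1 (lmFit, eBayes, R 4.3.3) over all named genes with no filter. Errors of log2 differences are limma standard errors, and intervals use its 7.01 degrees of freedom. No batch is in the labels. The fit was also run on simulated data, with noise independent between genes. A pass mark for recovery was set only for changes larger than any rise among the members. That pass mark therefore does not bear on rises as small as theirs. Smaller changes were simulated too, but their recovery had no pass mark and is not reported here. No detection call was used, so a dim gene cannot be told from an absent one, and 6 arrays limit the precision.

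Members and lists were chosen with earlier results of these data known, and the role groups and lists were written by hand. Named were all members called or, by role, not called, PEBP1, MYC, and in each list the up to 4 called genes with the smallest p. RIOK3, NMD3, RSL24D1, NLE1, EFL1, PHAX, SCARNA9, RPL10A, MRM3, CD5, KRT18 and the falling genes of the closing lists were added after their values were seen. Protein sequences were not used here. Figures were drawn with matplotlib 3.10.9.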

Additional observations from a re-analysis of the deposited data

How the results depend on the processing

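Besides a stricter threshold, fitting all rows and leaving out an array, 9 alternatives were run. They included array weights, median centring, quantile normalisation, the replicate block, a prior that was trended and robust, and leaving out dim rows. The mean of probes, current symbols, and the 37 members without the NOL4 genes made up the rest. Under these 9 the number of members that rose, 21 in the main fit, stood at 15 to 23. It was 13 with all 53617 rows in the fit, which changes both the number of tests and the estimated prior, and 12 at an adjusted p under 0.01, where 5.64% and 4.68% of all genes rose. Of all genes 6.94% rose with the replicate block and 9.96% to 13.1% under the other refits that kept all genes. Without dim rows 19.5% of the 9667 genes left rose. Without 1 array 14 to 17 members rose. The number that fell was 2 or 3, and the median log2 difference 0.26 to 0.30, under every alternative run. No called gene changed sign. Members that did not pass and had differences near 0, and DCN among the markers, could change sign, DCN to -0.03 without control replicate 2. PEBP1 kept its call throughout (log2 differences -1.54 to -1.41). No pairing by replicate number was seen: deviations of same-numbered arrays correlated at 0.02, 0.00 and -0.02. With the replicate block 15 members rose and 3 fell, and GAR1, NOL10, NOL11, NOLC1, POLR1F and RRN3 lost their calls. It left 7 of 33 other small subunit factors, 9 of 41 other large subunit factors and 17 of 78 mitochondrial ribosomal proteins higher. With the trended and robust prior, where 13.1% of all genes rose and 12.9% fell, 25 other large subunit factors rose and 9 fell, 8 snoRNP assembly factors rose and 1 fell, and 4 exosome genes rose. Falls then numbered 11 for mitochondrial ribosomal proteins, 10 for translation factors and 5 for cytosolic ribosomal proteins. With all rows in the fit 6 other small subunit factors, 8 other large subunit factors and 14 mitochondrial ribosomal proteins rose, and 1 translation factor fell. Of 420 counts of these lists under the alternatives, 94 differed from the reported count by over 1.5 times. RRP15 passed with the trended prior and without dim rows, and NOL4 with the trended prior and without RKIP shRNA replicate 3. Of 69 named genes outside the 40, PEBP1 not counted, 28 lost their call under at least 1 alternative. The 69 include the markers PAX5, DCN and KLF1, which had no call in the main fit to lose.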

Other observations

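Ribosomes of the mitochondrion, which are built by another set of factors, also had raised genes. Of 78 genes with an MRPL or MRPS symbol 26 rose and 5 fell, or 33.3% and 6.41%, with a median log2 difference of 0.21. MRPS7 rose by 0.93, MRPS12 by 0.91, MRPL40 by 0.90 and MRPL49 by 0.74, with adjusted p-values from 0.00069 to 0.0013. Those that fell were MRPL10 at -0.44, MRPL45 at -0.45, MRPS31 at -0.29, MRPS9 at -0.30 and MRPL42P5, a pseudogene, at -1.02. MRPS31, MRPS9 and MRPL42P5 lost their calls in 5, 4 and 2 of the 6 fits that left out 1 array, with adjusted p up to 0.13, 0.089 and 0.057. The number of mitochondrial genes that rose was 14 to 21 in those fits, 14 of them without RKIP shRNA replicate 1.

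Of 23 measured snoRNA and scaRNA genes, 2 rose and 3 fell. As shares, both are near the 10.0% and 10.2% of all genes that rose and fell. The 5 genes are scaRNAs, which guide changes of spliceosomal RNAs in Cajal bodies. SCARNA27, SCARNA10 and SCARNA9 fell, at -0.54, -0.39 and -0.60, while SCARNA22 rose by 0.45 and SCARNA15 by 0.94 to a dim level. SCARNA9, SCARNA15 and SCARNA22 lost their calls in 4, 4 and 2 of the 6 fits that left out 1 array (adjusted p up to 0.074, 0.069 and 0.067), and the other 2 kept theirs. Of the polymerase subunits outside RNA polymerase I, POLR3B rose by 0.57, as 1 of 5 for RNA polymerase III, and POLR2D by 0.33, as 1 of 4 for RNA polymerase II. POLR2D lost its call in 5 of 6 such fits (adjusted p up to 0.082).

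Of 37 genes with an EIF or EEF symbol, most of them translation factors, 10 rose and 5 fell, or 27.0% and 13.5%, against 10.0% and 10.2% of all genes, so that the share that fell is near that of all genes. EIF1AD rose by 1.05, EIF4A3, a helicase of the exon junction complex, by 0.62 and EIF5B, which joins the subunits, by 0.42 (adjusted p from 0.0030 to 0.0044). Those that fell were EIF3J-DT, a non-coding transcript, at -0.54, EIF1B at -0.44, EIF1 at -0.35, EEF2 at -0.32 and EIF2D at -0.29. EIF1B and EIF1 lost their calls in 3, and EEF2 and EIF2D in 5, of the 6 fits that left out 1 array (adjusted p up to 0.065, 0.066, 0.065 and 0.12), so that 1 to 4 genes fell in those fits, in which 6.84% to 8.53% of all genes fell.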
